A study of Mus musculus with 12 samples.

Results

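Ciita and 9 genes of the MHC class II pathway were followed in follicular B cells, the main recirculating B cell population of the mouse spleen. The 10 genes were taken by name: Ciita, the class II chain genes H2-Aa, H2-Ab1 and H2-Eb1, the invariant chain gene Cd74, the H2-DM genes H2-DMa, H2-DMb1 and H2-DMb2, and the H2-DO genes H2-Oa and H2-Ob. All 10 were among the 12837 genes counted both at 0 h and at 4 h, and all 10 passed the filter on low counts in every comparison. The cells came from adult male mice, either WT (Gpr174+/Y) or GPR174-deficient (Gpr174-/Y, here KO). In the KO allele the single coding exon of Gpr174, an X-linked gene for a G-protein-coupled receptor, is replaced by tdTomato. The change is carried in the germline, so it affects every cell of the mouse and not B cells alone. Sorted cells were frozen at once (0 h) or after 4 h in complete RPMI with no added stimulus (4 h), and each genotype at each time gave 3 libraries of raw read counts per gene, in 4 groups. The comparisons asked how genotype and short culture bear on the transcripts of antigen presentation.

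CIITA is the coactivator that drives transcription of class II genes. It binds no DNA itself and is recruited to class II promoters by the RFX, CREB and NF-Y proteins that sit on the conserved X and Y boxes. Class II alpha and beta chains pair in the endoplasmic reticulum with the invariant chain, which fills the peptide groove, and in endosomes H2-DM removes the remnant of the invariant chain so that antigen peptides can bind. H2-DO, which is made chiefly in B cells and thymic epithelium, holds H2-DM in check. Most of these genes are known CIITA targets, and B cells express them constitutively.

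Library totals ran from 6098941 to 11618787 counts, and the ribosomal RNA precursor row Rn45s took 6.65% to 11.3% of a library. Gpr174 was counted at 149.5 to 156.9 CPM (read counts relative to the library total, scaled by the TMM method over all 12 libraries) in uncultured WT cells and 73.4 to 76.7 CPM in KO. After culture it was at 152.6 to 169.1 CPM in WT cells and 104.8 to 118.3 CPM in KO, so every KO library lay below every WT library of its time. Counts per gene do not show whether the Gpr174 reads of KO libraries fell inside or outside the replaced part, and this was not tested. The 9 follicular B cell markers, Ms4a1, Cd79a and Fcer2a among them, summed to between 5301 and 9438 CPM. Markers of other cells that express class II stayed far lower in every library, at 17.1 to 27.1 CPM for the dendritic cell list and 26.6 to 81.0 CPM for the macrophage list, against 14710 to 22570 CPM for the 10 class II pathway genes together. The dendritic cell sum covers 9 genes at 0 h and 8 at 4 h, and the macrophage sum 11 and 6, so these sums are not comparable between times.

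The promoters are shown first because class II promoters carry the elements through which CIITA acts. RefSeq promoter windows (GRCm38.p6, 250 bases before to 50 after the annotated start) were held for 7 of the 10 genes. In the stretches below, capitals mark GNAAC (part of the X box), TGACGTCA or TGATG (found in X2 boxes) and ATTGG (the core of the Y box), written 5′ to 3′ on the strand of the gene. TGACGTCA and TGATG were marked by sequence wherever they occurred up to ATTGG, so a marked TGATG need not be an X2 box. In H2-Eb1 the last TGATG lies close to ATTGG.
H2-Aa, chr17:34287864-34287912, minus strand: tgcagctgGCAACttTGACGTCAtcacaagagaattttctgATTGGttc
H2-Eb1, chr17:34305768-34305815, plus strand: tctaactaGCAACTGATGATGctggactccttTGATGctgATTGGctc
H2-Ob, chr17:34238810-34238855, plus strand: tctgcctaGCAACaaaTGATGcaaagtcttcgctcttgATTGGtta
H2-Oa, chr17:34092295-34092343, plus strand: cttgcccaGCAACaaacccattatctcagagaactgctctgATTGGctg
H2-DMb1, chr17:34153089-34153137, plus strand: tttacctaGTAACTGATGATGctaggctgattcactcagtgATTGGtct
H2-DMb2, chr17:34145118-34145166, plus strand: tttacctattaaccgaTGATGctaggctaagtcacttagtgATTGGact
GNAAC followed by ATTGG with 25 to 28 bases between them was present in 5 of the 7 genes and in 0.712% of all 32851 promoter windows. That spacing was set after these sequences had been read, so the count describes them and tests nothing. The elements taken alone are common, since ATTGG was found in 37.4% of all windows, GNAAC in 84.8% and TGATG in 39.3%, with both strands searched for every motif. TGACGTCA was found in 1.79% of windows and, of the 7 genes, in H2-Aa alone. The stretch of H2-DMb2 is shown beside that of its neighbour H2-DMb1 and did not hold the spaced pair, nor did the window of H2-DMa. GENCODE starts the H2-DMb2 gene at 34143307 and the H2-DMb1 gene at 34153072, so both stretches lie inside the genes as annotated there. What a window holds depends on the start used. The H2-DMb1 and H2-DMb2 genes are near-identical neighbours, so reads that fit both may have been dropped or split between them and their separate levels are uncertain.

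Before culture the class II chains and the invariant chain were expressed at high levels in both WT and KO. Per kilobase of exon (GENCODE basic transcripts), Cd74 led at 5265 ± 586 CPM per kb in WT 0 h (SD, n = 3), followed by H2-Aa at 4277 ± 238, H2-Ab1 at 3525 ± 347, H2-Eb1 at 1206 ± 53.6 and H2-Ob at 423 ± 15.0. H2-DMb1, H2-Oa, H2-DMb2 and H2-DMa then lay between 178 ± 6.04 and 99.6 ± 6.22 CPM per kb, and Ciita was the lowest of the 10 at 65.0 ± 2.46. The order of the 5 most abundant genes and the last place of Ciita were the same in all 4 groups, although in KO 4 h the level of Cd74 (3655 ± 141 CPM per kb) and that of H2-Aa (3625 ± 78.5) did not differ beyond their spread. Within the H2-DO pair the beta chain gene outnumbered the alpha chain gene in every library.

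At 0 h none of the 10 genes passed the test between genotypes (edgeR quasi-likelihood test, Benjamini-Hochberg adjusted p under 0.05), where 0.987% of all genes did (0.502% higher in WT and 0.485% higher in KO). DESeq2 called 0 as well, and 4 genes (H2-DMa, H2-DMb1, H2-Eb1 and Ciita, all lower in WT) had an unadjusted edgeR p under 0.05. Differences ran from a log2 fold change (WT over KO) of -0.20 ± 0.06 (SE) for H2-DMa, with an edgeR adjusted p of 0.103, to 0.09 ± 0.06 for H2-DMb2. The median of the 10 was -0.06 and that of all genes tested was 3e-04. H2-DMa was counted at 283, 250 and 264 CPM in the WT libraries and 296, 309 and 306 CPM in the KO libraries, without overlap. H2-DMb1 and H2-Eb1 were also lower in every WT library than in any KO library, a pattern that 8.73% of all genes showed, and 0 of the 10 were higher in every WT library, as 9.41% of all genes were. In the other 7 genes WT and KO libraries overlapped, and leaving out WT 0 h replicate 1 was enough to bring H2-DMa past the threshold (log2 fold change -0.25, edgeR adjusted p 0.0335).

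**Figure D1:**
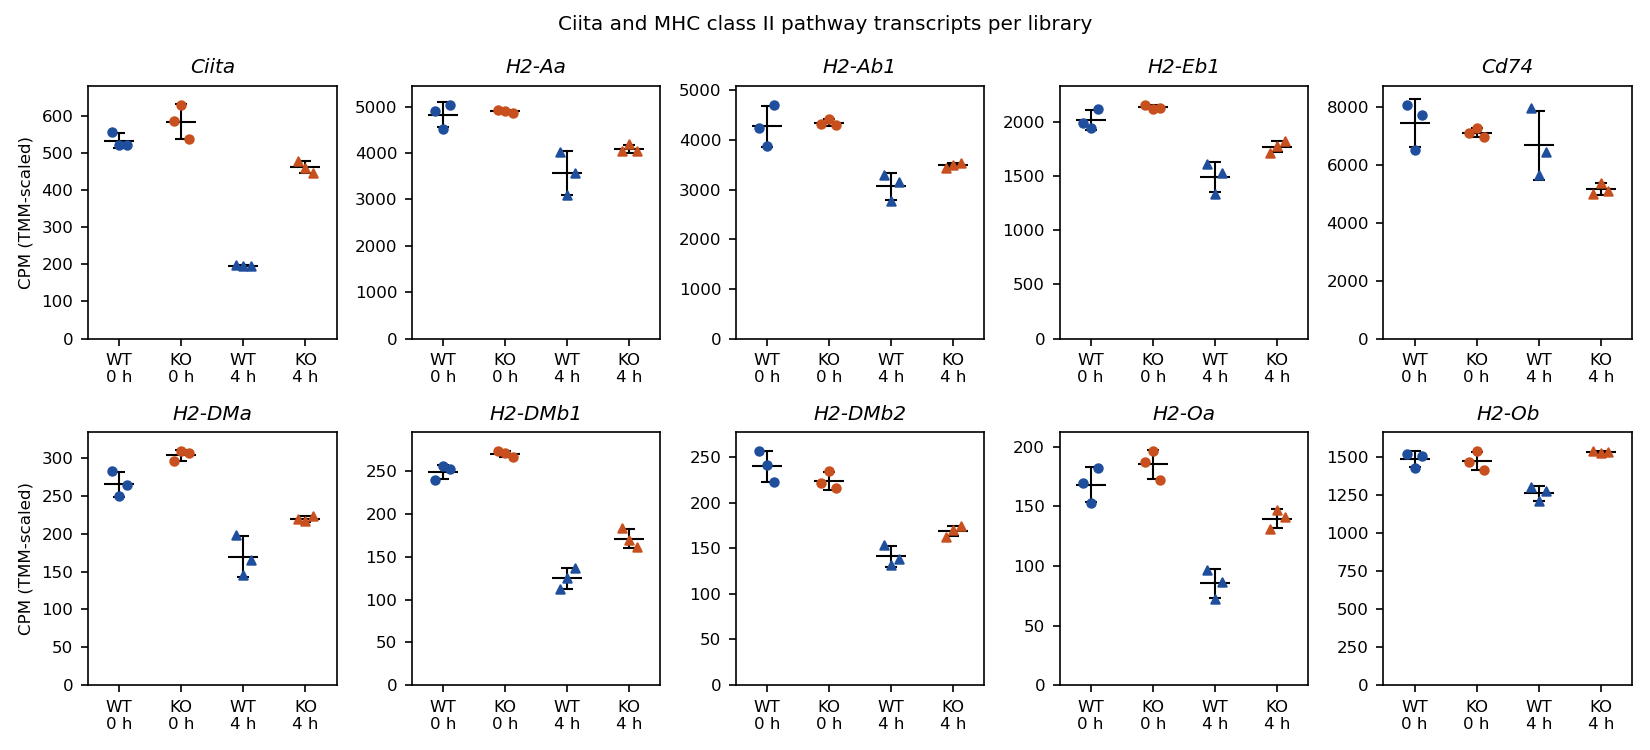
CPM (TMM-scaled, linear axes from 0) of Ciita and the 9 MHC class II pathway genes in each of the 12 libraries, as circles at 0 h and triangles at 4 h, WT in blue and KO in orange, with bars for the mean ± SD of 3 libraries. The 3 WT 4 h libraries of Ciita sit between 195 and 198 CPM, below all 9 others, and Cd74 is the gene whose WT 4 h libraries lie above those of KO 4 h.

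After 4 h the genotypes had separated, and Ciita separated most. Ciita was counted at 198, 195 and 195 CPM in the WT 4 h libraries and at 479, 460 and 448 CPM in the KO 4 h libraries. The WT libraries were within a few CPM of each other and far below any KO library. WT cells therefore held 42.4% of the KO level, a log2 fold change of -1.24 ± 0.06 (edgeR adjusted p 9.46e-10). In bulk samples, fewer cells that express a gene and less RNA of it per cell cannot be told apart. Ciita lies on chromosome 16 from 10480059 to 10528418 (GRCm38, plus strand) and shares 329 exonic bases with Dexi on the opposite strand. Since the strand setting of the counting was not stated, reads from those bases cannot be assigned to either gene.

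Of the 10 genes, 7 were called higher in KO at 4 h and 1, Cd74, was called higher in WT, while H2-Aa and H2-Ab1 did not pass. Over all genes tested at 4 h, 10.9% were called, 5.67% higher in KO and 5.22% higher in WT. The 2 genotypes were separated without overlap for each of the 10 genes. In 9 of them every WT library was the lower, as in 13.5% of all genes, and in Cd74 every WT library was the higher, as in 14.5%. The median log2 fold change of the 10 was -0.27, against 0.0048 over all genes.

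Among the genes of the peptide-editing machinery, H2-Oa and H2-DMb1 had the largest differences after that of Ciita. H2-Oa, the alpha chain of H2-DO, was at 97.0, 72.6 and 86.6 CPM in WT 4 h and 131, 147 and 141 CPM in KO 4 h. Every WT library was below every KO library, with a log2 fold change of -0.71 ± 0.09 (edgeR adjusted p 4.98e-05). H2-Ob, the beta chain of the same heterodimer, differed less, with 1302, 1208 and 1279 CPM in WT 4 h against 1538, 1526 and 1535 CPM in KO 4 h. The KO libraries lay close together, and the log2 fold change was -0.28 ± 0.05 (edgeR adjusted p 0.00323). BC051537, annotated antisense to H2-Oa, shares 321 exonic bases with it, so some H2-Oa reads may come from that transcript.

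H2-DM catalyses the release of the invariant chain remnant, and its 3 genes were all called. H2-DMb1 was at 113, 125 and 137 CPM in WT 4 h and 183, 170 and 161 CPM in KO 4 h, a log2 fold change of -0.45 ± 0.07 (edgeR adjusted p 0.000771). H2-DMa, which was nearest to a call at 0 h, was at 199, 146 and 165 CPM in WT and 219, 216 and 223 CPM in KO. WT replicate 1 came close to the KO libraries and the 2 others did not, and the log2 fold change was -0.37 ± 0.09 (edgeR adjusted p 0.0102). H2-DMa shares 360 exonic bases with Brd2 on the opposite strand. H2-DMb2 had a log2 fold change of -0.26 ± 0.07 (edgeR adjusted p 0.0184), a call that was lost without WT 4 h replicate 2 or 3 or KO 4 h replicate 2 or 3 (edgeR adjusted p 0.0531 to 0.0911).

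The classical class II chains differed little. H2-Eb1 encodes the I-E beta chain, whose alpha partner is not made in C57BL/6 mice, and it was at 1610, 1333 and 1524 CPM in WT 4 h and 1714, 1776 and 1821 CPM in KO 4 h, with a log2 fold change of -0.25 ± 0.07 (edgeR adjusted p 0.0269). That call was lost in 5 of the 6 fits that left out a library (edgeR adjusted p 0.0506 to 0.118), all but the fit without WT 4 h replicate 1. H2-Aa, the I-A alpha chain, was at 4028, 3088 and 3574 CPM in WT and 4043, 4191 and 4033 CPM in KO. WT replicate 1 all but reached the KO libraries, and the log2 fold change of -0.20 ± 0.08 did not pass (edgeR adjusted p 0.128). H2-Ab1, the I-A beta chain, had a log2 fold change of -0.19 ± 0.06 and did not pass either (edgeR adjusted p 0.084), although it was called by DESeq2 (adjusted p 0.0382) and by edgeR with library totals only (adjusted p 0.0393). Without WT 4 h replicate 1, H2-Aa and H2-Ab1 were both called, at -0.30 and -0.24 (edgeR adjusted p 0.00538 and 0.0170).

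Cd74, which encodes the invariant chain, went the other way. It was at 7983, 5646 and 6448 CPM in WT 4 h and at 5015, 5399 and 5112 CPM in KO 4 h. All WT libraries were above all KO libraries, WT replicate 1 by the widest margin, and the log2 fold change was 0.37 ± 0.09 (edgeR adjusted p 0.0178). The same WT library had the highest value of its group for 9 of the 10 genes, the exception being H2-DMb1, and an Rn45s share of 11.2%, against 7.78% for the lowest of the group. Without that library the Cd74 difference was 0.22 and still called (edgeR adjusted p 0.0366). The Cd74 call was not made without KO 4 h replicate 1 or KO 4 h replicate 3 (edgeR adjusted p 0.0793 and 0.0748) or by DESeq2 (adjusted p 0.124), although the log2 fold change stayed positive, up to 0.48, in every alternative run.

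**Figure D2:**
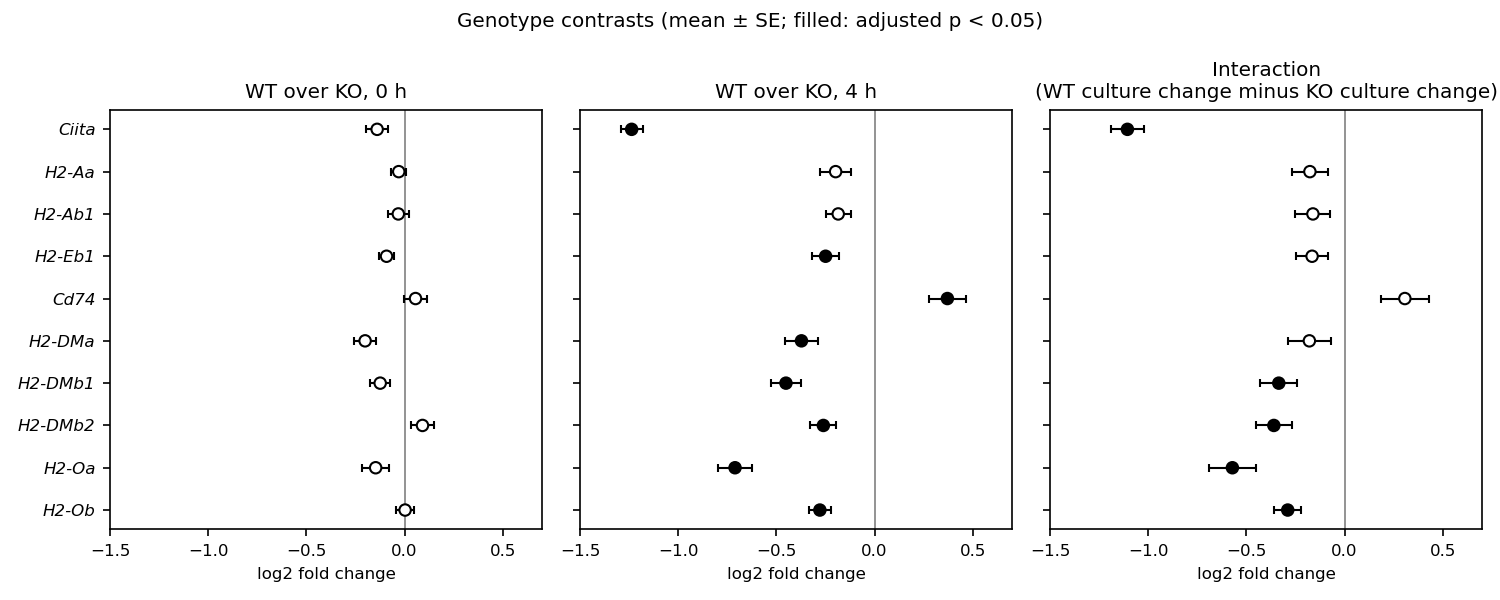
Log2 fold change ± SE for WT over KO at 0 h, WT over KO at 4 h, and the interaction (WT culture change minus KO culture change), with filled points for edgeR adjusted p under 0.05. No point is filled at 0 h, 8 of 10 are filled at 4 h, and 5 of 10 are filled in the interaction, where Ciita lies farthest from 0 at -1.11.

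Within WT cells most of the pathway was lower after 4 h of culture than before it. The test called 9 of 10 genes lower at 4 h than at 0 h, where 33.1% of all genes were called, 18.0% lowered and 15.1% raised, and the median log2 fold change of the 10 was -0.56. In these 9 every 4 h library was below every 0 h library (20.9% of all genes), and 0 genes were raised by edgeR, by DESeq2, at an unadjusted p under 0.05 or without overlap (20.0% of all genes). Ciita fell from 558, 523 and 523 CPM to 198, 195 and 195 CPM, that is to 36.7% of its 0 h level (log2 fold change -1.45 ± 0.06, edgeR adjusted p 5.76e-14). H2-DMb1 (-0.99 ± 0.07) and H2-Oa (-0.98 ± 0.09) fell to 50.2% and 50.7% of their 0 h levels. H2-DMb2 (-0.77 ± 0.07) and H2-DMa (-0.65 ± 0.08) came next. The classical chains fell less, H2-Ab1 by 0.48 ± 0.06, H2-Aa by 0.44 ± 0.07 and H2-Eb1 by 0.44 ± 0.06 on the log2 scale, and H2-Ob fell by 0.23 ± 0.05. Cd74 did not pass (log2 fold change -0.16 ± 0.09, edgeR adjusted p 0.183), and its WT libraries at 0 h (8095, 6517 and 7752 CPM) overlapped those at 4 h. Without WT 4 h replicate 1 it was called lower, at -0.30 (edgeR adjusted p 0.00206), without WT 0 h replicate 2 at -0.24 (edgeR adjusted p 0.0470), and with the replicate number as a block at -0.16 (edgeR adjusted p 0.00747).

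In KO cells culture also lowered 9 of the 10, where 23.3% of all genes were called, 13.0% lowered and 10.3% raised, but the order was different. The same 9 genes were lower in every 4 h library than in any 0 h library (21.3% of all genes), and 0 were raised by any of those 4 measures (20.6% of all genes without overlap). The largest falls were in H2-DMb1 (-0.66 ± 0.07), H2-DMa (-0.47 ± 0.08) and Cd74 (-0.46 ± 0.09). Ciita went from 586, 631 and 538 CPM to 479, 460 and 448 CPM and kept 79.0% of its 0 h level (log2 fold change -0.34 ± 0.06, edgeR adjusted p 0.000128). H2-Oa (-0.41 ± 0.08) and H2-DMb2 (-0.41 ± 0.07) each kept 75.4%. H2-Ab1, H2-Eb1 and H2-Aa fell by 0.32 ± 0.06, 0.27 ± 0.06 and 0.26 ± 0.07 on the log2 scale. H2-Ob did not pass, with a log2 fold change of 0.06 ± 0.05 and overlapping libraries. By size of fall Ciita was the first of the 10 in WT, whereas in KO 5 genes fell more.

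**Figure D3:**
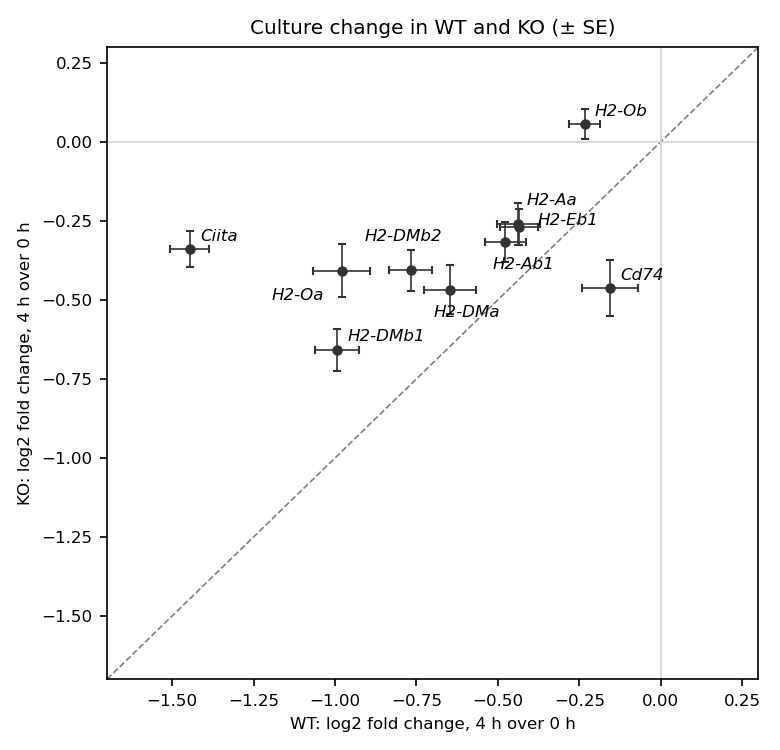
Log2 fold change from 0 h to 4 h in WT (horizontal) against that in KO (vertical), with bars for ± SE and a dashed line where the 2 are equal. Ciita, H2-Oa, H2-DMb1, H2-DMb2 and H2-Ob lie well above the line, which is a more negative change in WT, and Cd74 is the gene that lies below it.

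The interaction tested whether the culture changes differed between genotypes. The change was more negative in WT for 5 of the 10 genes and more positive for 0, where 6.39% of all genes were called, 3.94% more negative and 2.45% more positive. DESeq2 likewise called 5 and 0, and at an unadjusted edgeR p under 0.05 Cd74 was the 1 gene more positive in WT. Ciita had an interaction of -1.11 ± 0.08 on the log2 scale (edgeR adjusted p 7.52e-09), H2-Oa of -0.57 ± 0.12 (0.00437) and H2-Ob of -0.29 ± 0.07 (0.0110), and these 3 calls were kept in every alternative run. H2-DMb2 (-0.36 ± 0.09, edgeR adjusted p 0.0204) and H2-DMb1 (-0.34 ± 0.09, edgeR adjusted p 0.0331) were called as well, but their calls were lost in 7 and 10 of 17 alternatives (edgeR adjusted p 0.051 to 0.0656 and 0.0516 to 0.118). Of the fits that left out a library, H2-DMb1 kept its call in 3, those lacking replicate 1 of WT 0 h, replicate 3 of WT 4 h and replicate 3 of KO 4 h. H2-DMb2 kept it in 5, those lacking replicates 2 and 3 of WT 0 h, replicate 2 of KO 0 h and replicate 1 of either group at 4 h. H2-DMa, H2-Aa, H2-Eb1 and H2-Ab1 lay between -0.18 ± 0.11 and -0.16 ± 0.09 and did not pass, but without WT 4 h replicate 1 H2-DMa (-0.30, edgeR adjusted p 0.0444) and H2-Aa (-0.27, edgeR adjusted p 0.0291) were called. Cd74 had 0.31 ± 0.12 (edgeR adjusted p 0.178), and was called without WT 4 h replicate 2 (0.42, edgeR adjusted p 0.0178) and with the replicate number as a block (0.30, edgeR adjusted p 0.00423). The study used 3 mice per genotype, so the libraries of the 2 times may come from the same mice, but the labels do not say that a number marks a mouse. Whether the culture change of Cd74 differed between genotypes therefore depended on the fit.

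Ratios of read counts taken within a library do not depend on scaling between libraries, and they show how the balance of the pathway moved. The ratio of Ciita to H2-Aa reads went from 0.111 ± 0.00641 (SD, n = 3) in WT 0 h to 0.0556 ± 0.00708 in WT 4 h, and from 0.120 ± 0.00911 to 0.113 ± 0.00471 in KO. The ratio of Cd74 to H2-Aa went from 1.54 ± 0.105 to 1.87 ± 0.0966 in WT, where the libraries of the 2 times did not overlap, and from 1.46 ± 0.0287 to 1.27 ± 0.0241 in KO, again without overlap and in the opposite direction. The ratio of H2-DM to H2-DO reads, with all subunit genes summed, went from 0.457 ± 0.0182 to 0.323 ± 0.00891 in WT and from 0.481 ± 0.0141 to 0.335 ± 0.00343 in KO. H2-Ob makes up most of the H2-DO sum. With the alpha chains alone, H2-DMa over H2-Oa, the ratio went up in WT, from 1.59 ± 0.117 to 1.99 ± 0.0764, and stayed within its spread in KO (1.64 ± 0.118 and 1.58 ± 0.103). The ratio of H2-Oa to H2-Ob reads went from 0.113 ± 0.00684 to 0.0674 ± 0.00720 in WT and from 0.126 ± 0.00344 to 0.0912 ± 0.00570 in KO. Together the 10 genes took 2.05% ± 0.155 of all counts in WT cells before culture and 1.72% ± 0.173 after it, and 2.11% ± 0.0371 and 1.79% ± 0.0319 in KO cells.

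**Figure D4:**
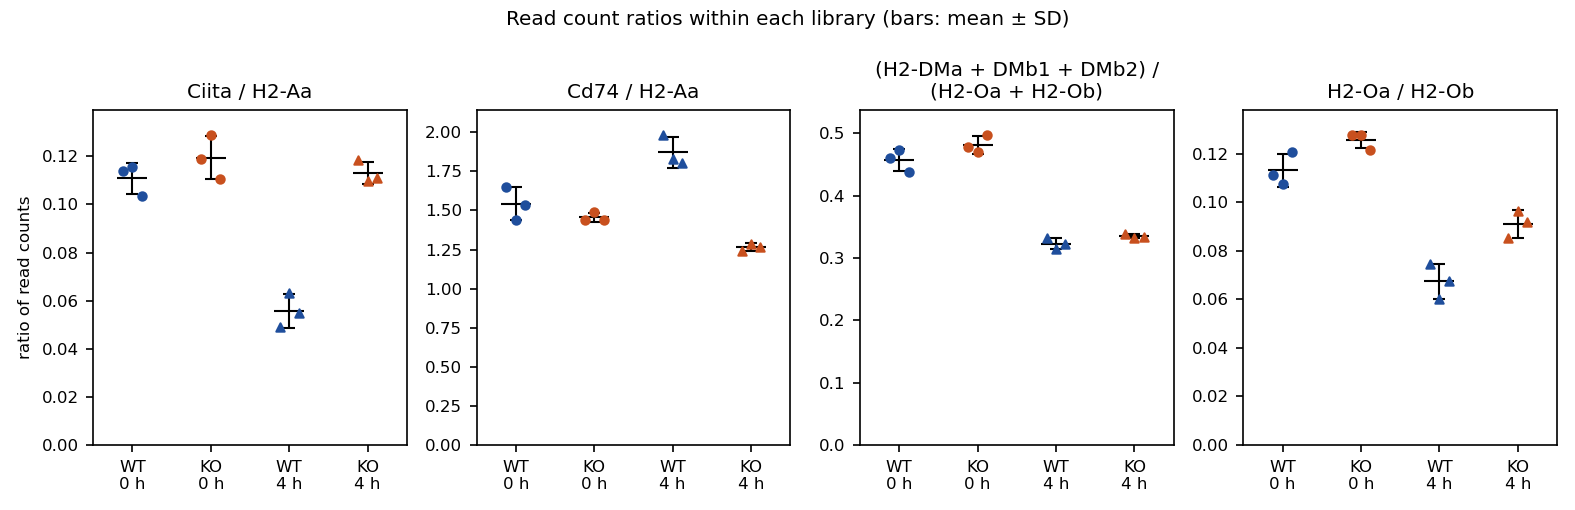
Ratios of read counts within each of the 12 libraries (circles 0 h, triangles 4 h, WT blue, KO orange, bars mean ± SD of 3 libraries, linear axes from 0). Ciita over H2-Aa is lower after culture in WT than in the 3 other groups, and Cd74 over H2-Aa is highest in cultured WT cells and lowest in cultured KO cells.

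The factors that recruit CIITA showed a difference in Rfx5, the DNA-contacting subunit of the RFX complex. Of 10 promoter-binding factors and coactivators, 1 was called higher in KO at 4 h (5.67% of all genes) and 1 higher in WT (5.22% of all genes). Rfx5 was at 91.2 to 99.5 CPM in WT 4 h and 143 to 156 CPM in KO 4 h, a log2 fold change of -0.66 ± 0.07 (edgeR adjusted p 4.74e-06). Its WT and KO libraries did not overlap, and its interaction was -0.66 ± 0.12 (edgeR adjusted p 0.00143). An annotated antisense transcript, B230398E01Rik, shares 1471 exonic bases with Rfx5. Rfxank, another RFX subunit, was higher in WT at 4 h (0.39 ± 0.11, edgeR adjusted p 0.0366), and Creb1, which binds the X2 box, had an interaction of -0.32 ± 0.07 (edgeR adjusted p 0.0103). The median over this list at 4 h was -0.01.

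Of 16 transcription factors known to act on Ciita, 15 were tested. At 4 h 4 were called higher in KO (5.67% of all genes) and 1 higher in WT (5.22% of all genes). The smallest adjusted p-values were those of Bcl6 (-0.59 ± 0.07), the repressor that marks germinal centre B cells, Pax5 (-0.43 ± 0.06), the factor that holds B cell identity, and Ikzf3 (-0.49 ± 0.07), an Ikaros family member of lymphocytes, with edgeR adjusted p of 1.9e-05, 6.85e-05 and 0.000161. The same 3 had the smallest adjusted p in the interaction, at -0.70 ± 0.10 for Bcl6, -0.54 ± 0.08 for Pax5 and -0.61 ± 0.08 for Ikzf3. The list median at 4 h was -0.03, and 10 of the 15 genes tested were not called. Bcl6 was at 120 to 130 CPM in WT 4 h and 182 to 208 CPM in KO 4 h.

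Genes that act on class II proteins after synthesis were called in both directions. Of 14 genes 13 were tested, and 3 were called higher in KO at 4 h (5.67% of all genes) and 1 higher in WT (5.22% of all genes). Cd83, a membrane protein that protects class II from degradation, was at 254 to 285 CPM in WT 4 h and 141 to 184 CPM in KO 4 h (log2 fold change 0.68 ± 0.08, edgeR adjusted p 4.8e-05). At 0 h the order was the reverse, with a log2 fold change of -0.31 ± 0.07 (edgeR adjusted p 0.0356), and the interaction was 0.98 ± 0.12 (edgeR adjusted p 6.62e-06). March1, the ubiquitin ligase that drives class II turnover and which CD83 opposes, was lower in WT at 4 h (-0.54 ± 0.07, edgeR adjusted p 0.000133), with an interaction of -0.81 ± 0.11. It was at 209 to 260 CPM in WT 4 h and 322 to 345 CPM in KO 4 h. At 0 h every WT library of March1 lay above every KO library, with a log2 fold change of 0.26 ± 0.07 (edgeR adjusted p 0.0813, not called). Lgmn, a lysosomal protease, was also lower in WT at 4 h (-0.33 ± 0.07, edgeR adjusted p 0.00516), with an interaction of -0.37 ± 0.09.

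Class I presentation is shown for contrast, since its transactivator NLRC5 is a relative of CIITA. Of 18 genes 1 was called at 4 h, H2-T23, a non-classical class I gene, with -0.71 ± 0.07 (edgeR adjusted p 8.97e-06), and it was also the 1 gene called in the interaction (-0.62 ± 0.09, edgeR adjusted p 0.000139). Over all genes 10.9% were called at 4 h and 6.39% in the interaction. At an unadjusted edgeR p under 0.05, 4 of the 18 were lower in WT at 4 h, H2-T23 among them, and 1 was higher. Culture lowered 12 of the 18 in WT and 14 in KO, with medians of -0.24 and -0.35, where 18.0% and 13.0% of all genes were called lowered. Nlrc5 fell with a log2 fold change of -1.49 ± 0.11 in WT and -1.84 ± 0.11 in KO. Unlike Ciita it was not called between genotypes at 4 h, whereas at 0 h it was higher in KO (-0.53 ± 0.08, edgeR adjusted p 0.00243). Whether class I and class II genes differ as groups was not tested.

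H2-Eb2, a class II beta gene beside H2-Eb1 (chromosome 17, 34325665 to 34341412), moved unlike its neighbour in culture. It rose in culture in WT (0.25 ± 0.07, edgeR adjusted p 0.0119) and in KO (0.39 ± 0.07, edgeR adjusted p 0.000309), while H2-Eb1 fell in both. It was lower in every WT library than in any KO library at both times, with a log2 fold change of -0.24 ± 0.08 at 0 h (edgeR adjusted p 0.189, not called) and -0.38 ± 0.06 at 4 h (edgeR adjusted p 0.000366), and its interaction did not pass (-0.15 ± 0.10, edgeR adjusted p 0.514). The ratio of H2-Eb2 to H2-Eb1 reads went from 0.0623 ± 0.00783 to 0.101 ± 0.0128 in WT and from 0.0688 ± 0.00143 to 0.109 ± 0.00243 in KO. H2-Ea-ps, the other class II locus tested, had low counts, 17 to 42 reads in WT 4 h. Its culture changes were also positive, 0.26 ± 0.28 in WT and 0.33 ± 0.29 in KO, but were not called.

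**Figure D5:**
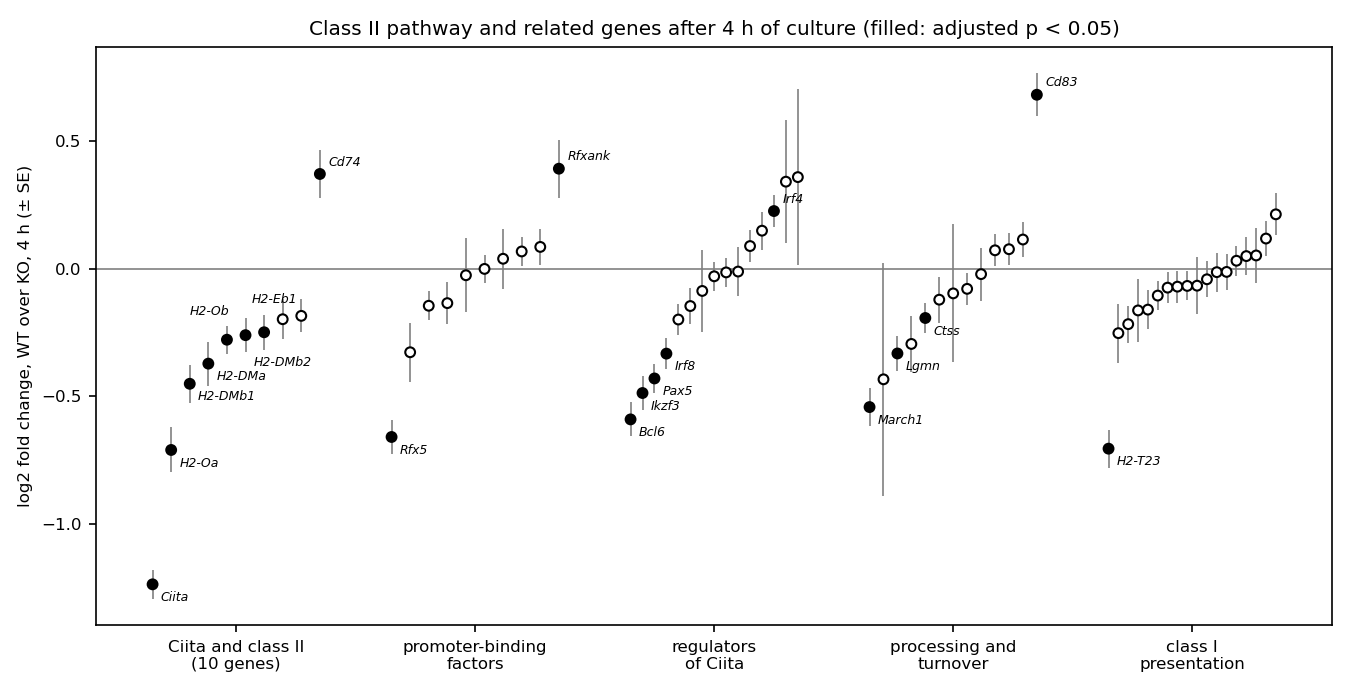
Log2 fold change of WT over KO at 4 h ± SE for the 10 class II pathway genes and for 4 related lists, each ordered from low to high, with filled and named points for edgeR adjusted p under 0.05. Ciita has the lowest value shown at -1.24, and Cd83 the highest at 0.68.

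The genes nearest to Ciita in the course and size of their changes over the 12 libraries were not class II genes. The distance was the root-mean-square difference of log2 CPM, each gene centred on its own mean. Changes were not scaled, so a smaller change of the same course also counts as distance. The nearest of 11572 genes was Dexi (0.139), which overlaps Ciita on the opposite strand and may share reads with it. Btla (0.142), an inhibitory receptor of lymphocytes, Hdac9 (0.145), a histone deacetylase, Swap70 (0.151), a signalling protein of B cells, and Fcer2a (0.176), which encodes CD23, followed. Btla was at 455 CPM in WT 4 h on average and 1257 in KO 4 h, with a log2 fold change of -1.47 ± 0.07. Dexi showed -1.06 ± 0.10 at 4 h. Among the 9 other genes of the pathway the nearest to Ciita was H2-Oa at rank 25 (0.236), then H2-DMb1 at rank 73 (0.290), and Cd74 was the farthest at rank 5114 (0.648). Nearest to Cd74 were Tgfb1 (0.0822), Mesdc1 (0.0899), Calr (0.0984), Ppp1r11 (0.0994) and Bhlhe40 (0.105). Tgfb1, which encodes a cytokine, was higher in WT at 4 h by 0.45 ± 0.08. These distances describe the 12 libraries, which all of the genes share. The nearest genes were picked from those same libraries, so their fold changes follow from the choice and test nothing.

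Markers of the B cell subset moved in the same comparison as the class II genes. Of the 9 follicular B cell markers 6 were called higher in KO at 4 h, among them Cd22 (-1.03 ± 0.06), Cr2 (-0.91 ± 0.10) and Fcer2a (-0.90 ± 0.06), and 0 were called higher in WT (1 at an unadjusted edgeR p under 0.05). Over all genes 5.67% were called higher in KO and 5.22% higher in WT. The summed level of the 9 markers was 5301 to 5761 CPM in WT 4 h and 6991 to 7135 CPM in KO 4 h, after 8278 to 9438 CPM at 0 h in both genotypes. At 4 h the summed levels of the other lists were 17.1 to 26.3 CPM in WT and 18.1 to 20.3 CPM in KO for dendritic cells, 26.6 to 43.5 and 34.9 to 48.1 CPM for macrophages, 6.13 to 14.9 and 4.08 to 12.5 CPM for T cells, 107 to 114 and 105 to 114 CPM for marginal zone B cells, and 166 to 191 and 130 to 175 CPM for plasma cells. In these 5 lists the ranges of WT and KO overlapped. In each of 3 of these lists 1 gene was called at 4 h, where 10.9% of all genes were. The dendritic cell marker Flt3 (1.53 ± 0.30, edgeR adjusted p 0.00344) and the plasma cell marker Ell2 (0.36 ± 0.08, edgeR adjusted p 0.0116) were higher in WT, and the marginal zone marker Cd1d1 (-0.45 ± 0.12, edgeR adjusted p 0.0281) was higher in KO. The part of these markers in the class II differences was not tested.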

How the data were processed

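Male WT and KO littermates gave the spleens out of which the follicular B cells were sorted. The authors amplified RNA with the Ovation RNA-seq System V2, sequenced single-end reads, aligned them with STAR to mm10 and counted reads per gene with HTSeq. Strand setting, annotation and tool versions are not given in the sources used here. The authors deposited raw counts per gene, 1 table per time, holding only genes whose counts summed to at least 10. Of the columns, 0 could not be mapped to a library. The study gives 3 mice per genotype, so the 0 h and 4 h libraries may share mice. The labels do not tie libraries to mice, and p-values measure the spread between these libraries. Replicate pairs differed by more than sampling noise (chi-square per degree of freedom 1.943 to 9.3).

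Counts were filtered with filterByExpr, scaled with TMM and tested with the quasi-likelihood test of edgeR 4.0.16 in R 4.3.3, over all genes, with Benjamini-Hochberg adjustment and a threshold of 0.05. Genotype was fitted on the 6 libraries of a time, and culture and interaction on all 12. Log2 fold changes are given ± SE. The fits were tested on simulated data. Alternatives used DESeq2 1.42.0, other scalings, no filter, a replicate block and leaving out each library. All 10 class II genes are named, and of the other lists up to 3 with the smallest adjusted p at 4 h or in the interaction, with Nlrc5, Flt3, Ell2 and Cd1d1 chosen after their values were seen. Genes most like Ciita or Cd74 were the 5 nearest by log2 CPM (prior count 2). The genes, lists and tests were chosen with earlier results of these data known. Of the planned follicular B cell markers, 1 is not reported here and was left out of that list's counts and sums.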

Additional observations from a re-analysis of the deposited data

Results flagged for a closer look

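The culture change differed between WT and KO, by the interaction term of the edgeR fit, in 5 of the 10 genes. The WT change minus the KO change was -1.1067 for Ciita, -0.5718 for H2-Oa, -0.3606 for H2-DMb2, -0.3355 for H2-DMb1 and -0.2899 for H2-Ob on the log2 scale, so the fall was larger in WT for all but H2-Ob, which fell in WT and was not called in KO. Over all genes 6.39% were called in this test. Ciita, H2-Oa and H2-Ob kept their calls in all 17 alternatives, and H2-DMb1 and H2-DMb2 did not.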

How the results depend on the processing

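Between genotypes at 0 h, H2-Ob turned from 0.0026 to -0.0287 with library totals only. Leaving out a library at 0 h gave H2-Ob from -0.0292 to 0.0394, Cd74 from -0.0049 to 0.1432, H2-Aa from -0.0632 to 0.0138 and H2-Ab1 from -0.1081 to 0.0338, and gave 0 to 1 genes called higher in KO. These 4 genes were not called between genotypes at 0 h in any of those fits. At 4 h the count higher in KO ran from 5 to 9 over all alternatives, and that higher in WT was 0 with DESeq2 and 0 to 1 when a library was left out. Culture in KO raised 1 gene with library totals only (H2-Ob, 0.15), a scaling that moved the median of all genes in culture to 0.11 in WT and 0.09 in KO. The calls of lowered genes in culture, 9 in WT and 9 in KO, were kept in all 18 alternatives of each. In the interaction, leaving out a library gave 3 to 6 genes more negative and 0 to 1 more positive in WT. The log2 change of the H2-DM to H2-DO ratio was 0.3284 in WT and -0.06014 in KO with H2-DMa over H2-Oa alone. Without Rn45s in the totals the 10 genes took 2.292% of counts before and 1.895% after culture in WT, and 2.337% and 1.932% in KO. The causes were not tested, apart from the ratio, whose change follows from leaving out H2-Ob and the beta chain genes.

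The labels do not say whether replicate numbers pair the libraries. Deviations of same-numbered libraries of a genotype correlated at 0.126, 0.072 and 0.117 in WT and -0.04, 0.145 and 0.152 in KO. Differently numbered libraries of the 2 times correlated at -0.099 to -0.004 in WT and -0.18 to 0.051 in KO. Within its genotype every library correlated best with its own number, except replicate 1 of KO, which did not at either time. The main culture and interaction fits did not use the numbers. With the replicate block, 1 gene was more positive in WT in the interaction (Cd74, 0.30, edgeR adjusted p 0.00423) and Cd74 was called lower in WT culture (-0.16, edgeR adjusted p 0.00747). No other call among the 10 genes changed. The lowest count of any of the 10 genes in a library was 464 reads (H2-Oa, WT 4 h replicate 2), so counts of 0 set no limit here.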
